A study of Mus musculus with 6 samples.

Results

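Interferon-stimulated genes are the transcripts a cell raises when it senses an interferon, and 36 of them were followed here in mouse liver. Members were taken from a list of gene symbols, 28 of them grouped as type I genes and 8 as interferon gamma-induced GTPase genes. For each symbol the probe set with the highest mean over the 6 arrays was kept. A total of 34 members were measured, 27 type I and 7 GTPase genes, of 30702 genes named on the array. No filter on low values was applied, so all 34 were tested. Ifi44 had no probe set under its own symbol in the table used here, and the probe set of Ifi47 also carries a second gene name, so neither is reported.

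The study profiled liver RNA of male mice aged 8 weeks, with 1 array for each of 6 mice. The 3 HFD-inulin mice were the offspring of mothers given inulin, a fermentable plant fibre, and the 3 HFD mice were the offspring of mothers on a high-fat diet. Because the first title names HFD as well, inulin is not read here as having replaced the high-fat diet. The labels give no strain and no diet of the offspring themselves, and they leave unsaid how many mothers or litters each group stands for. The p-values therefore measure the spread between these samples only, and 3 arrays a group limit the precision of every value.

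Type I interferons bind a receptor whose kinases activate STAT2, which acts with IRF9 on the interferon-stimulated response element of target promoters. Interferon gamma has a receptor of its own, acts on the gamma-activated sequence and is the main inducer of the guanylate-binding proteins and the immunity-related GTPases, which attack the vacuoles of intracellular parasites. The classes overlap, since many genes respond to both interferons. In the liver these genes can be expressed by hepatocytes and by Kupffer, endothelial and other immune cells.

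The promoters below are shown because they belong to the named members of smallest p that carry the response element core, a pair of type I genes and a GTPase gene. Each line gives the 180 bases before the transcription start, from RefSeq on GRCm38.p6, written along the gene's strand. Capitals mark matches to the core, which was searched as GAAA, any 2 bases and GAAA again, or on the opposite strand as TTTC, any 2 bases and TTTC again. Rsad2 lies at chr12:26456453-26456632 on the minus strand, Ifit1 at chr19:34640709-34640888 on the plus strand and Irgm1 at chr11:48871421-48871600 on the minus strand.
Rsad2: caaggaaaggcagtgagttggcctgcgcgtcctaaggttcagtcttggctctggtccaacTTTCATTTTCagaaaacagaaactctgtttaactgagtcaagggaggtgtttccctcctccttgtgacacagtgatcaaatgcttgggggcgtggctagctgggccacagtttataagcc
Ifit1: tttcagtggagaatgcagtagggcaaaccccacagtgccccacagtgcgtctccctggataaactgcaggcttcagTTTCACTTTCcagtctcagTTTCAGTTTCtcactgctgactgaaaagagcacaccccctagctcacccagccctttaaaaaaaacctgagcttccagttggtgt
Irgm1: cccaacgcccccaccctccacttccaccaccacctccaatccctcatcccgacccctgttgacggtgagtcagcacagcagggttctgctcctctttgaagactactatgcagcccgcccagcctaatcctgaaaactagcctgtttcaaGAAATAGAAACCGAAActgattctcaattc

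The core had 1 match in the Rsad2 stretch and 2 in the Ifit1 stretch, each on the strand opposite to the gene, and 2 overlapping matches in the Irgm1 stretch on the strand of the gene. RefSeq windows of 250 bases before to 50 bases after the start were found for 19 type I and 6 GTPase members. A core match was present for 10 of these 19 type I genes (45.5% of their 22 windows) and for each of these 6 GTPase genes (85.7% of their 7 windows), against 3.44% of 32851 windows of all genes. The gamma-activated sequence, TTCNNNGAA, which reads the same on both strands, was found for 4 type I genes, Irf1 among them (18.2% of windows), and for the GTPase genes Gbp7, Igtp and Irgm2 (42.9% of windows), against 8.3% of all windows. The 2 patterns shared bases only in the window of Bst2. A match describes the letters of a window and says nothing of binding in these livers.

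The deposited values are log2 signals, whose array medians lay between 1.17 and 1.25 in HFD-inulin livers and between 1.20 and 1.26 in HFD livers. The labelled tissue was borne out by its markers, since 8 hepatocyte genes averaged 9.96 to 10.08 in the HFD-inulin arrays and 10.18 to 10.25 in the HFD arrays. The arrays also fell into 2 sets that cross the groups. Probe sets numbered on chromosome Y that share all their values averaged 1.91 and 1.60 in HFD-inulin arrays 1 and 2 and 1.34 in HFD array 1. The same mean was 3.15 in HFD-inulin array 3 and 3.24 and 2.99 in HFD arrays 2 and 3. The array medians followed this split. They were 1.20 and 1.17 in HFD-inulin arrays 1 and 2 and 1.20 in HFD array 1. They were 1.25 in HFD-inulin array 3 and 1.25 and 1.26 in HFD arrays 2 and 3. The cause of this split was not tested, and results are given within each set where it bears on them.

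Most interferon-stimulated genes had lower means in HFD-inulin livers, and none passed the test. Of the 34 members, 30 were lower and 4 higher, where 53.1% of all named genes were lower and 46.9% higher. With limma and Benjamini-Hochberg adjustment over 65956 probe sets, 0 members passed an adjusted p of 0.05, as did 0% of all probe sets, and the smallest adjusted p of a member was 0.902. At an unadjusted p under 0.05 there were 7 members, all type I, 6 lower and 1 higher. Of all probe sets 5.15% lay under that value, 2.64% lower and 2.52% higher, and with 1 probe set a gene 2.22% were lower and 3.42% higher. This count moved with single arrays, and so did the share of all probe sets. Omitting HFD-inulin array 2 left 3 such members (3.92% of all probe sets) and omitting HFD-inulin array 3 gave 16 (9.89%). Omitting HFD array 2 left 4 (3.18%). Omitting HFD array 1 or HFD array 3 left 1 each time (6.12% and 3.36%). A trended and robust prior called 4 probe sets, 0 of them members. Since the RNA came from whole liver, fewer cells of a type and less RNA per cell cannot be told apart.

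The median log2 difference, HFD-inulin minus HFD, was -0.15 over the 27 type I genes and -0.054 over the 7 GTPase genes, against -0.007 over all named genes. The type I median was -0.078 without HFD-inulin array 1, and the GTPase median turned to 0.064 without HFD-inulin array 2 and to 0.041 with the array split as a block. The groups did not overlap for 5 members. Rsad2, Cmpk2, Oasl1 and Mx2 were lower and Zbp1 was higher in each HFD-inulin array than in each HFD array. Among all genes 6.05% were apart and lower and 5.41% apart and higher, and among all probe sets 6.02% and 4.32%. The heat map of the members by array shows that the lowest values of most members sat in HFD-inulin array 1 or 2. Stat2, Irf9 and Trim25 were lowest in HFD-inulin array 3.

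**Figure D1:**
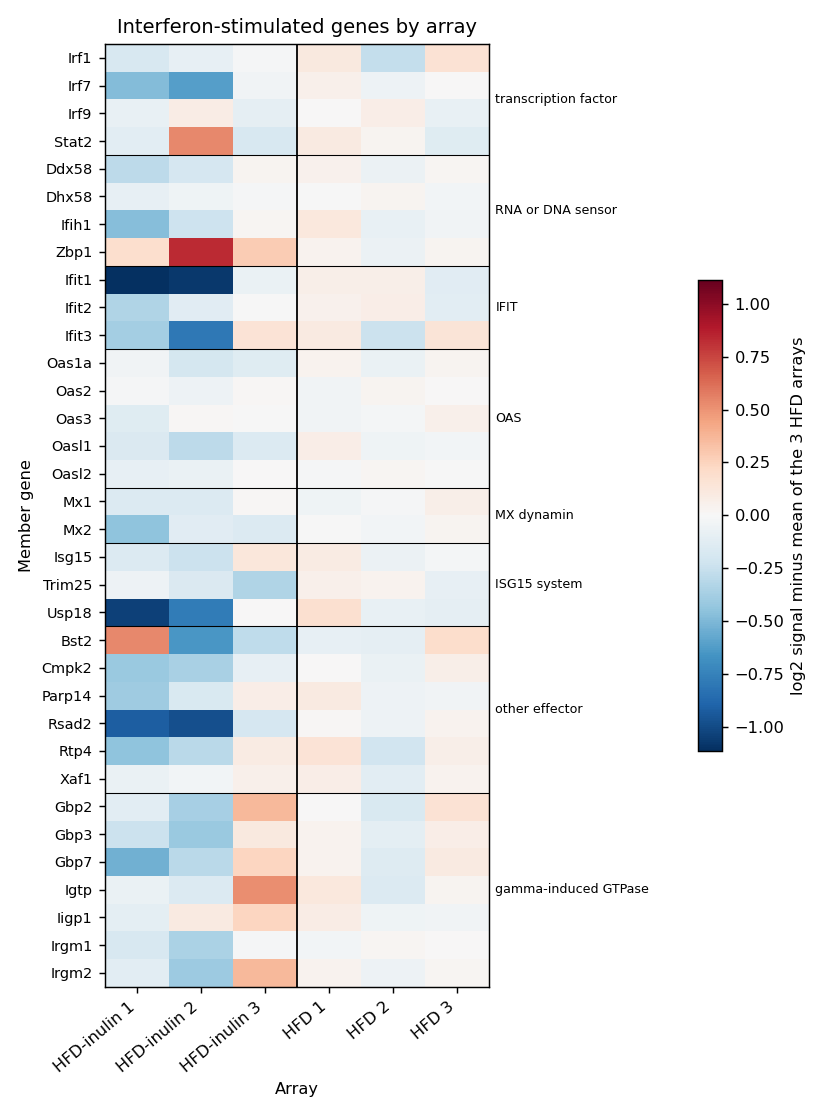
Log2 signal of the 34 measured members (rows, grouped by role) in each of the 6 arrays (columns), minus the mean of the 3 HFD arrays. Blue marks values below and red values above that mean. Rsad2, Ifit1 and Usp18 are dark blue in HFD-inulin arrays 1 and 2, and 6 of 7 GTPase genes, all but Irgm1, are red in HFD-inulin array 3.

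The effector genes held the member with the smallest p, Rsad2, which encodes viperin, an enzyme that makes a chain-terminating nucleotide against viral polymerases. Its log2 signal stood at 1.79, 1.73 and 2.52 in HFD-inulin arrays 1 to 3, against 2.72, 2.66 and 2.75 in HFD arrays 1 to 3. HFD-inulin arrays 1 and 2 were far below the rest, array 3 lay just under the HFD range, and the groups were apart. The difference was -0.70 (SE 0.21, 95% interval -1.19 to -0.20), a 0.617-fold ratio, with an unadjusted p of 0.0129 and an adjusted p of 0.902 in limma. Cmpk2, a nucleotide kinase gene beside Rsad2 on chromosome 12, had a log2 signal of 2.83, 2.88 and 3.15 in HFD-inulin arrays 1 to 3, against 3.25, 3.17 and 3.30 in the HFD arrays. HFD-inulin arrays 1 and 2 were again the lowest and array 3 lay just under the HFD range, and its groups were apart. The Cmpk2 difference was -0.29 (SE 0.10, limma unadjusted p = 0.0255, adjusted p = 0.902).

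All 3 measured IFIT genes, which encode proteins that bind viral RNA and block its translation, had lower means in HFD-inulin livers. Ifit1 had a log2 signal of 1.49, 1.53 and 2.53 in HFD-inulin arrays 1 to 3, against 2.67, 2.67 and 2.48 in HFD arrays 1 to 3. HFD-inulin arrays 1 and 2 stood apart from the other 4, and array 3 lay inside the HFD range, so the groups overlapped. Its difference of -0.76 (SE 0.28, 95% interval -1.42 to -0.10) was the most negative of any member (limma unadjusted p = 0.0302, adjusted p = 0.902). Ifit3 had a log2 signal of 2.512, 2.097 and 3.048 in HFD-inulin arrays 1 to 3, against 2.996, 2.649 and 3.032 in the HFD arrays. There HFD-inulin array 3 was the highest of all. Ifit2 differed by -0.15 (SE 0.10).

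In the ISG15 system, Usp18 encodes the protease that removes the ubiquitin-like ISG15 from proteins and restrains the type I receptor. Its log2 signal stood at 3.19, 3.45 and 4.24 in HFD-inulin arrays 1 to 3, against 4.41, 4.15 and 4.13 in the HFD arrays. HFD-inulin arrays 1 and 2 were again the lowest, and array 3 fell within the HFD range. The difference was -0.61 (SE 0.26, 95% interval -1.23 to 0.02, limma unadjusted p = 0.0554, adjusted p = 0.902). Isg15 itself had a log2 signal of 0.77, 0.68 and 1.05 in HFD-inulin livers, against 1.02, 0.85 and 0.90 in HFD livers, and its mean was below the median probe set of 1.22. The difference of Isg15 was -0.09 (SE 0.11). Trim25, a ubiquitin ligase that acts with RIG-I, had 5.25, 5.14 and 4.97 in HFD-inulin arrays 1 to 3, against 5.36, 5.34 and 5.21 in HFD arrays. Here array 3 was the lowest HFD-inulin array, and array 1 reached into the HFD range.

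Among the transcription factors, Irf7, which drives type I interferon production, had the smallest p. Its log2 signal stood at 3.97, 3.84 and 4.41 in HFD-inulin arrays 1 to 3, against 4.50, 4.39 and 4.45 in HFD arrays 1 to 3. The groups overlapped through HFD-inulin array 3 alone. The difference was -0.38 (SE 0.15, 95% interval -0.73 to -0.03, limma unadjusted p = 0.0391, adjusted p = 0.902). Stat2 had a log2 signal of 4.80, 5.45 and 4.73 in HFD-inulin arrays 1 to 3, against 5.01, 4.95 and 4.78 in HFD arrays. Its HFD-inulin arrays spanned the HFD range on both sides, with array 2 the highest, and its mean was 0.08 higher (SE 0.19, adjusted p in limma 0.965). Without HFD-inulin array 2 the Stat2 difference was -0.15.

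Irf9, the DNA-binding partner of STAT2, had a log2 signal of 3.99, 4.15 and 3.97 in HFD-inulin arrays 1 to 3, against 4.07, 4.15 and 3.99 in HFD arrays. The groups overlapped almost fully, with a difference of -0.03 (SE 0.08). Irf1, a factor that interferon gamma induces, had 3.77, 3.86 and 3.94 in HFD-inulin arrays, against 4.06, 3.69 and 4.11 in HFD arrays. All its HFD-inulin arrays lay within the HFD range, and the difference was -0.10 (SE 0.12, adjusted p in limma 0.944). With the mean of this and a second, dimmer Irf1 probe set the difference was 0.02.

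**Figure D2:**
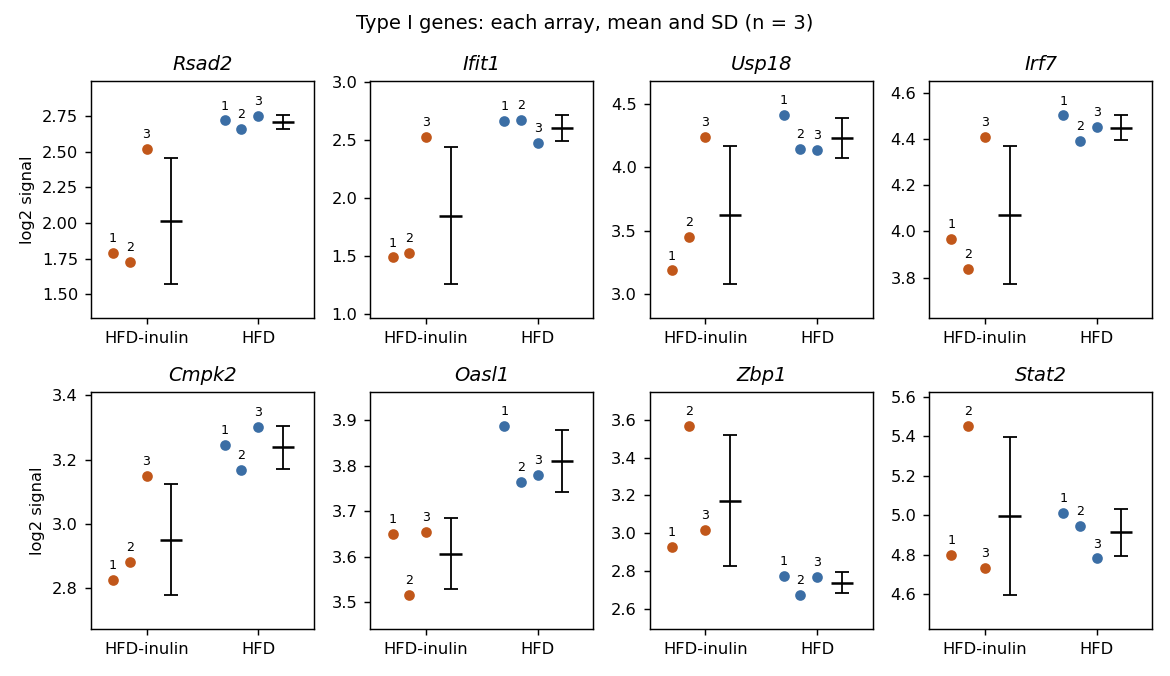
Log2 signal of 8 type I genes in each array, with numbers for the replicate and bars for the mean and SD of the 3 arrays of a group. The axes do not start at 0 and differ between panels. HFD-inulin arrays 1 and 2 lie at the bottom for Rsad2, Ifit1, Usp18, Irf7 and Cmpk2, and Zbp1 is higher in each HFD-inulin array.

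The nucleic acid sensors held the member with the largest positive difference. Zbp1, a sensor of Z-form nucleic acid that can start necroptosis, had a log2 signal of 2.93, 3.57 and 3.02 in HFD-inulin arrays 1 to 3, against 2.77, 2.67 and 2.77 in HFD arrays. Array 2 was the highest, and the groups were apart. The difference was 0.43 (SE 0.17, 95% interval 0.03 to 0.84), a 1.35-fold ratio (limma unadjusted p = 0.0377, adjusted p = 0.902). The RNA helicase sensors had lower means. The differences were -0.23 (SE 0.13) for Ifih1, which encodes MDA5, -0.15 (SE 0.10) for Ddx58, which encodes RIG-I, and -0.05 (SE 0.06) for their regulator Dhx58. In all 3 helicase genes HFD-inulin arrays 1 and 2 were the lowest of the 6.

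The 5 oligoadenylate synthetase members, which include the enzymes that activate RNase L, all had lower means, and 1 reached an unadjusted p under 0.05. Oasl1, which in mice also restrains translation of Irf7, had a log2 signal of 3.65, 3.52 and 3.65 in HFD-inulin arrays, against 3.89, 3.76 and 3.78 in HFD arrays. Unlike in Ifit1, HFD-inulin array 3 stayed below the HFD range. The difference was -0.20 (SE 0.07, 95% interval -0.38 to -0.03, limma unadjusted p = 0.0276, adjusted p = 0.902). The other 4 differed by -0.12 for Oas1a, -0.05 for Oasl2, -0.04 for Oas3 and -0.02 for Oas2, each with overlapping groups.

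Mx1 and Mx2 encode dynamin-like antiviral GTPases, and RefSeq types both as transcribed pseudogenes in the reference strain. Mx2 had a log2 signal of 1.43, 1.75 and 1.72 in HFD-inulin arrays, against 1.87, 1.85 and 1.91 in HFD arrays, with the groups apart. The Mx2 difference was -0.24 (SE 0.10, limma unadjusted p = 0.0441, adjusted p = 0.902). Mx1 averaged below the median probe set and differed by -0.10.

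Of the remaining effectors, Bst2 encodes tetherin, which holds budding virions at the cell surface. Its log2 signal stood at 7.59, 6.41 and 6.78 in HFD-inulin arrays 1 to 3, against 6.97, 6.95 and 7.25 in HFD arrays. HFD-inulin array 1 was the highest and array 2 the lowest of all 6, and the HFD arrays lay between them. The difference of -0.13 (SE 0.29, adjusted p in limma 0.963) became 0.13 without HFD-inulin array 2. Rtp4, a receptor transporter protein gene, differed by -0.22 (SE 0.16), Parp14, an ADP-ribosyltransferase gene, by -0.17 (SE 0.13) and Xaf1, a promoter of apoptosis, by -0.02 (SE 0.08). In Rtp4 and Parp14 HFD-inulin array 3 lay within the HFD range, while arrays 1 and 2 lay below it.

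**Figure D3:**
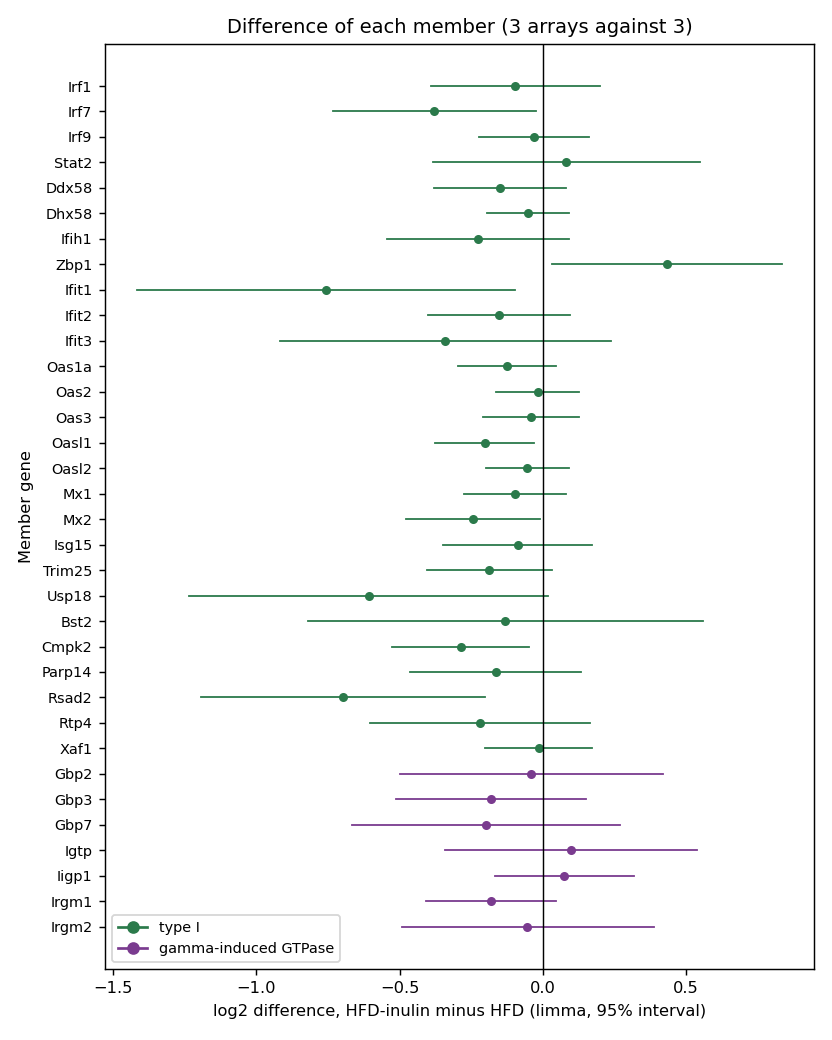
Log2 difference, HFD-inulin minus HFD, of each measured member with the 95% interval of the limma fit (3 arrays against 3). Green marks type I genes and purple GTPase genes. The intervals of 7 type I genes exclude 0, 6 of them below it, before any adjustment for the number of probe sets, and those of all 7 GTPase genes include 0.

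The GTPase genes differed little in their group means and widely between the HFD-inulin arrays. Of the 7, 5 had lower and 2 higher means, with differences between -0.20 and 0.10, and 0 had an unadjusted p under 0.05 in limma. Irgm1, a regulatory immunity-related GTPase, had the smallest p of the class. Its log2 signal stood at 4.13, 3.96 and 4.30 in HFD-inulin arrays 1 to 3, against 4.28, 4.34 and 4.31 in HFD arrays. Arrays 1 and 2 were the lowest, and array 3 fell within the HFD range. The difference was -0.18 (SE 0.10, 95% interval -0.41 to 0.05, adjusted p in limma 0.902).

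The guanylate-binding proteins Gbp3 and Gbp7 also had lower means. Gbp3 had a log2 signal of 2.09, 1.92 and 2.44 in HFD-inulin arrays 1 to 3, against 2.37, 2.22 and 2.40 in HFD arrays, a difference of -0.18 (SE 0.14, adjusted p in limma 0.910). Gbp7 had 3.48, 3.72 and 4.26 in HFD-inulin arrays, against 4.06, 3.88 and 4.12 in HFD arrays, a difference of -0.20 (SE 0.20, adjusted p in limma 0.925). In both genes HFD-inulin arrays 1 and 2 were the lowest of the 6 arrays and array 3 was the highest. The same order held in Irgm2, whose difference was -0.05 (SE 0.18). In Gbp2, with a difference of -0.04 (SE 0.19), HFD-inulin array 2 was the lowest and array 3 the highest, and array 1 lay within the HFD range.

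Igtp, another regulatory immunity-related GTPase gene, had a log2 signal of 4.88, 4.81 and 5.47 in HFD-inulin arrays, against 5.07, 4.80 and 4.99 in HFD arrays. Array 3 stood above all others, and arrays 1 and 2 lay within the HFD range. Igtp differed by 0.10 (SE 0.18) and Iigp1, an effector of the same family, by 0.08 (SE 0.10). Iigp1 was highest in HFD-inulin array 3 and lowest in HFD-inulin array 1.

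The following counts by array were chosen after the values were seen. HFD-inulin arrays 1 and 2 both lay below the other 4 arrays in 16 of 27 type I genes and in 4 of 7 GTPase genes, a pattern that 12.8% of all named genes showed. The pattern was not particular to the members. In the lists described below, 12 of 33 other type I genes showed it. So did 4 of 8 hepatocyte, 4 of 10 Kupffer cell and 3 of 9 sinusoidal endothelial markers. It was found in 3 of 14 T, NK and B cell, 2 of 8 plasmacytoid dendritic cell and 0 of 10 neutrophil markers. HFD-inulin array 3 lay within the range of the HFD arrays in 15 of 27 type I genes and in 1 of 7 GTPase genes, where 51.9% of all named genes did. It lay below that range in 9 of 27 type I genes and in 0 of 7 GTPase genes, where 7418 of 30702 named genes did. It was the highest of the 6 arrays in 2 of 27 type I genes, Ifit3 and Isg15, and in 6 of 7 GTPase genes, all but Irgm1, where 14.7% of all named genes were. The members were measured in the same arrays, so these counts are not independent observations.

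Set against the HFD mean, the median type I gene lay at -0.16, -0.17 and -0.003 in HFD-inulin arrays 1 to 3, and at 0.047, -0.057 and 0.007 in HFD arrays 1 to 3. The median GTPase gene lay at -0.12, -0.35 and 0.24 in HFD-inulin arrays and at 0.037, -0.11 and 0.034 in HFD arrays. The 2 classes were thus both low in HFD-inulin arrays 1 and 2, and in array 3 the GTPase genes were above the HFD mean while the type I genes were near it. The plot of GTPase genes by array also shows 7 further GTPase genes that were not members, of 13 listed. Their median lay at -0.37, -0.29 and 0.22 in HFD-inulin arrays, against 0.017, -0.087 and 0.092 in HFD arrays, and 6 of the 7 were highest in HFD-inulin array 3. HFD-inulin arrays 1 and 2 both lay below the other arrays in 4 of the 7. Gm4951 did not follow, at 5.82, 5.97 and 5.72 in HFD-inulin arrays, against 5.63, 5.87 and 5.82 in HFD arrays.

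**Figure D4:**
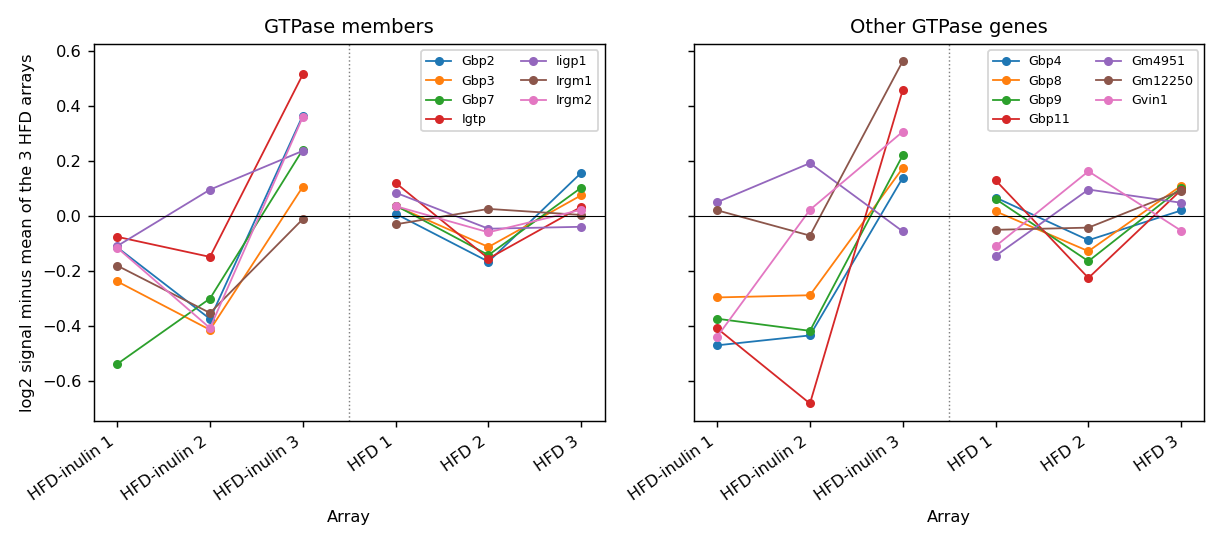
Log2 signal of 7 GTPase members (left) and 7 other GTPase genes (right) in each array, minus the mean of the 3 HFD arrays. Lines join the values of a gene and imply no order of the arrays. HFD-inulin array 3 is the highest array in 6 of 7 genes of each panel.

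The median difference of both classes was negative in one set of arrays, and in the other that of the GTPase genes was positive. In the first set, HFD-inulin arrays 1 and 2 against HFD array 1, the median difference was -0.27 over type I genes and -0.25 over GTPase genes, and -0.016 over all named genes. There 23 of 27 type I and 7 of 7 GTPase genes were lower. In the second set, HFD-inulin array 3 against HFD arrays 2 and 3, the median was -0.011 over type I genes and 0.28 over GTPase genes, and 0.004 over all named genes. There 16 of 27 type I genes were lower and 6 of 7 GTPase genes higher. Each set has a group with 1 array, and 0 members passed the adjusted threshold of limma in either.

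Single genes show the contrast between the sets. Ifit1 differed by -1.16 in the first set and by -0.04 in the second, and Usp18 by -1.10 and 0.10. Rsad2 kept its sign, with -0.96 and -0.18, as did Oasl1 with -0.31 and -0.12 and Zbp1 with 0.48 and 0.30. Igtp differed by -0.23 and 0.58, and Irgm2 by -0.30 and 0.38. Whether a difference depends on the set was not tested.

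**Figure D5:**
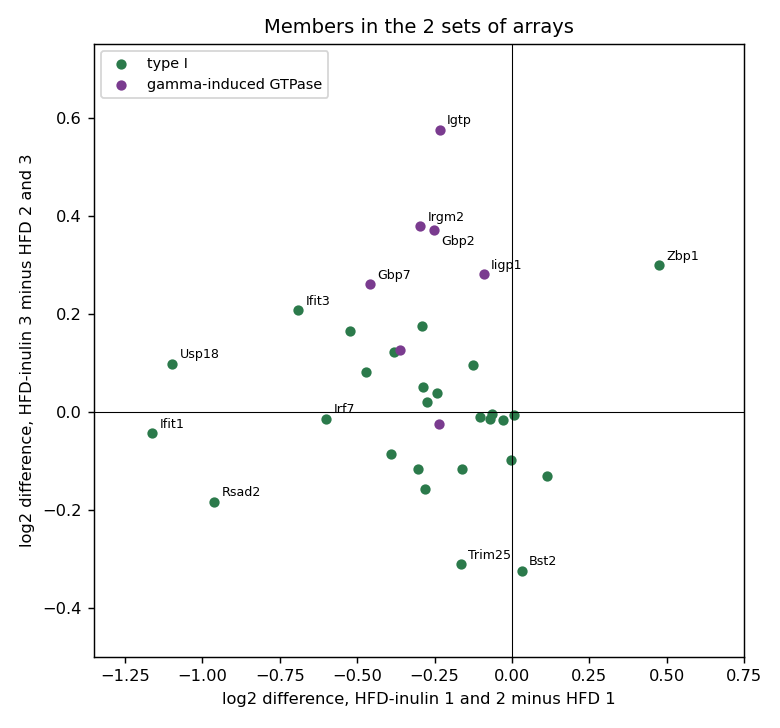
Log2 difference of each measured member, HFD-inulin minus HFD, in the set of HFD-inulin arrays 1 and 2 with HFD array 1 (horizontal axis) and in the set of HFD-inulin array 3 with HFD arrays 2 and 3 (vertical axis). Green marks type I and purple GTPase genes. All 7 GTPase genes lie left of 0 and 6 of them above 0, while Rsad2 and Ifit1 lie far to the left and below 0.

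HFD-inulin array 3 was singled out because its values did not follow those of arrays 1 and 2, so that leaving it out lowers the means and p-values by that choice, and the following values are a description. Without it 31 of 34 members had lower means. At an unadjusted p under 0.05 there were then 15 lower members and 1 higher, against 9.89% of all probe sets, 4.33% lower. The groups were apart and lower in 21 members, where 15.7% of all named genes were. The Rsad2 difference was -0.95 and the Ifit1 difference -1.10 without that array, with an adjusted p of 0.0558 for each in limma. Usp18 followed with -0.92 (adjusted p 0.0954) and Irf7 with -0.55 (adjusted p 0.0986). As in the fit of all 6 arrays, 0 members were called. Leaving out any other array gave 1 to 5 members at an unadjusted p under 0.05, with 3.18% to 6.12% of all probe sets.

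In the pathway upstream of these genes the median differences lay slightly above 0. Of 11 measured interferon genes, 6 had higher and 5 lower means, with a median difference of 0.019, and 5 of the 11 averaged below the median probe set. Ifna2, which differed by 0.22, and Ifna4, by -0.20, had the smallest p of these genes. Ifng had a log2 signal of 0.64, 0.85 and 0.85 in HFD-inulin arrays, against 0.66, 0.73 and 0.64 in HFD arrays. Of 14 genes for interferon receptors and JAK-STAT signalling, 10 were higher and 4 lower, with a median of 0.055. Pias1, a SUMO ligase gene, differed by -0.09 and Ifngr1, a chain of the gamma receptor, by 0.21. Of 13 genes for sensor adaptors and interferon induction, 7 were higher and 6 lower, with a median of 0.030, and these included the RNA receptor gene Tlr3 at 0.21 and Irf8 at -0.17. Of all named genes 46.9% were higher. In each of these lists 0 genes passed the adjusted threshold or an unadjusted p under 0.05 in limma, where 5.15% of all probe sets lay under the latter.

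Other type I interferon-stimulated genes, outside the members, were lower in 24 and higher in 9 of 33 measured, of 36 listed, with a median of -0.068. Of all named genes 53.1% were lower. At an unadjusted p under 0.05 in limma, 2.22% of all named genes were lower and 3.42% higher. The adjusted threshold of limma was passed by 0 of them. At an unadjusted p under 0.05 there were 2 lower, Lgals9 (-0.26) and the Ifit3 relative Ifit3b (-0.54), and 2 higher, the membrane-fusion inhibitor Ifitm1 (0.28) and Ifi27l2a (0.20). The largest difference of the list in either direction was that of Ifitm2, 0.66 (SE 0.32, limma unadjusted p = 0.0793), with overlapping groups. Of the 7 further GTPase genes 2 were higher and 5 lower, with a median of -0.14, and Gbp4 (-0.25) and Gbp9 (-0.19) had the smallest p. Ifit3b and Ifit3 are close relatives, as are the guanylate-binding protein genes. Whether probes of such a gene also match its relatives was not checked.

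Markers of cells that can express these genes were measured in the same arrays. Of all named genes, 53.1% had lower means, and 2.22% were lower at an unadjusted p under 0.05 in limma. The mean log2 signal of 10 Kupffer cell markers was 5.04, 4.96 and 5.11 in HFD-inulin arrays 1 to 3, against 5.09, 5.21 and 5.23 in HFD arrays, with 8 of 10 lower. Adgre1 and Timd4, genes of a macrophage surface receptor and a phosphatidylserine receptor, differed by -0.32 each, at an unadjusted p under 0.05. The 2 Kupffer cell markers with higher means were Clec4f (0.035) and Vsig4 (0.019). The mean of 9 sinusoidal endothelial markers was 4.66, 4.68 and 4.71 in HFD-inulin arrays, against 4.85, 4.72 and 4.72 in HFD arrays, with 8 of 9 lower. Of these, 1 had an unadjusted p under 0.05, the scavenger receptor gene Stab2 (-0.28), and the only higher one was Clec4g (0.23). The mean of 14 T, NK and B cell markers, of 16 listed, lay between 1.31 and 1.37 in HFD-inulin arrays, against 1.35 to 1.44 in HFD arrays, with 11 of 14 lower.

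The mean of 8 plasmacytoid dendritic cell markers was 1.61 to 1.73 in HFD-inulin arrays and 1.60 to 1.75 in HFD arrays. The mean of 10 neutrophil markers was 1.31, 1.64 and 1.32 in HFD-inulin arrays, against 1.37, 1.27 and 1.30 in HFD arrays. The value of HFD-inulin array 2 came from S100a8, S100a9 and Retnlg, and the median deviation of the list from the HFD mean there was 0.048. Of 8 hepatocyte markers, of 10 listed, 5 were lower, where 53.1% of all named genes were. Of these, 3 (Hnf4a, Cps1 and Apob) had an unadjusted p under 0.05 in limma, where 2.22% of all named genes were lower. The adjusted threshold of limma was passed by 0 markers of any list. None of the marker genes was listed at 0. The part of any of these cell types in the levels of the interferon-stimulated genes was not tested.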

How the data were processed

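TRIzol-extracted liver RNA of 6 male mice was biotin-labelled and run on Affymetrix arrays, 1 a mouse. The values are log2 signals that the authors deposited for 65956 probe sets. The submitters' processing notes name Affymetrix Expression Console 1.0 as the software used. How signals were summarized and background-corrected, and on which build, is not given in the sources used here. Scanner files, scan dates and detection calls were not used here, which leaves scan batches untested and the limit of detection unknown. Signals near the median probe set (1.22) carry little information. The values run from -0.13 to 12.1, which is how the log base was judged.

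Symbols came from GEO's platform annotation and were brought up to date with RefSeq (GRCm38.p6). This gave 31258 probe sets with 1 gene, 1492 with several and 33206 with no listed symbol. All 34 measured members lie on the chromosome of their gene, and 0 share all 6 values with another probe set. Irf1 has 2 probe sets, the other members 1 each.

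Groups were compared on all 6 arrays, unfiltered, with limma 3.58.1 in R 4.3.3 (lmFit and eBayes, HFD-inulin minus HFD, two-sided). The Benjamini-Hochberg adjustment ran over the whole table, and the threshold was 0.05. The script was first tested on simulated data. The members, the gene lists and the split of the arrays were chosen with earlier results of these data known. Values per array are given for the 6 type I and 3 GTPase members of smallest unadjusted p, the 4 transcription factors and the 4 members of widest range over the arrays. Of each pathway list the 2 genes of smallest p are named. Mx2, Ifit3, Isg15, Trim25, Igtp, Ifng, Ifitm2 and the markers given by name were added after their values were seen. Alternatives were a trended and robust prior, a filter on dim probe sets, normalization by quantiles, centring on array medians, weights for arrays, a block for the replicate number, each array left out, the array split as a block and within its sets, and the mean of a gene's probe sets. Deviations from the group mean of arrays with the same number correlated at 0.26, -0.28 and 0.40, so the numbers were not read as pairs.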

Additional observations from a re-analysis of the deposited data

How the results depend on the processing

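In every setting 0 members were called by limma. The replicate block gave 6 members at an unadjusted p under 0.05 and a type I median of -0.15, and nothing in the labels pairs the mice. With each array left out in turn, the number at an unadjusted p under 0.05 ran from 1 (omitting HFD array 1 or HFD array 3, with 6.12% and 3.36% of all probe sets) to 16 (omitting HFD-inulin array 3, with 9.89%), against 7 with all arrays (5.15%). Members with higher means ran from 3 to 7, against 4, and members with groups apart from 5 (omitting HFD-inulin array 2, with 19.6% of all named genes apart) to 22 (omitting HFD-inulin array 3, with 31.4%), against 5 with all arrays (11.5%). The type I median difference ran from -0.196 to -0.078. The GTPase median ran from -0.261 to 0.064, the highest without HFD-inulin array 2. It was 0.041 with the array split as a block and 0.280 within the set of HFD-inulin 3, HFD 2 and HFD 3. In that set the type I median was -0.011, 17 members were higher and 25 had groups apart, as had 68.5% of all named genes. Within HFD-inulin 1, HFD-inulin 2 and HFD 1 the type I median was -0.274 and 28 had groups apart, as had 67.5% of all named genes. With 1 array against a pair, groups come apart often by construction. Median centring gave 7 higher members, a type I median of -0.118 and a GTPase median of -0.022. It left 5 members at an unadjusted p under 0.05 in limma, with 4.66% of all probe sets.

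Signs of single genes also turned. With each array left out, Stat2 ran from -0.148 to 0.213, Irf9 from -0.090 to 0.007 and Bst2 from -0.465 to 0.129. The sign turned without HFD-inulin array 2 for Stat2 and Bst2, and for Irf9 without HFD-inulin array 3 (0.002) or HFD array 2 (0.007). Irf9 was at 0.000 after median centring, Stat2 at -0.009 with the split as a block and Bst2 at 0.032 within HFD-inulin 1, HFD-inulin 2 and HFD 1. Within the other set Stat2 was at -0.131, Irf1 at 0.038, Usp18 at 0.098, Gbp3 at 0.125 and Gbp7 at 0.260, and the mean of both Irf1 probe sets gave 0.021. The cause of these changes was not tested.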
